A study of Mus musculus with 12 samples.

Results

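The mitochondrial carrier family, encoded by the Slc25 genes, was examined in the livers of 12 male mice. Members were the genes whose symbol starts with Slc25a, read from probe sets that name a single gene, each gene by its brightest probe set. Slc25a1, Slc25a15, Slc25a17 and Slc25a20 were set aside by the rule. Of 40 genes that could enter, 35 were kept because their probe set reached the 40th percentile of its array on 3 or more arrays, among 13598 genes tested in all. The 4 groups held 3 mice each, aged 6 to 12 weeks, with livers taken at Zeitgeber time 14 of a 12 h light and 12 h dark cycle. Untreated wild-type mice had the Jcl:ICR background and ate normal chow. Treated wild-type mice of that background, Clk/Clk mutants of that background and PPARα-null mice ate chow with 0.5% (w/w) bezafibrate, a fibrate drug that activates PPAR receptors, for 5 days. The null line was made by crossing 129S4SvJae-PPARalphatm1Gonz/J mice with Jcl:ICR, so its strain background differs from that of the other groups. No mutant was left untreated, so the effect of a mutant's genotype and its response to the drug cannot be told apart. The study asked which PPARα-regulated genes also depend on CLOCK.

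Slc25 carriers are small proteins, most of them in the inner mitochondrial membrane, built of repeated pairs of membrane-spanning helices. Many exchange one solute of the matrix for another of the cytosol. Different members move ADP and ATP, phosphate, coenzymes, dicarboxylic acids, amino acids, glutathione or iron. In hepatocytes they feed the respiratory chain, connect cytosolic and matrix steps of urea, sugar and fatty acid metabolism, and supply cofactors to matrix enzymes. PPARα is the fatty acid receptor that switches on oxidation genes in fasted liver, and CLOCK is a transcription factor of the circadian clock.

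Values are log2 expression per probe set, so a difference of 1 is a 2-fold difference in signal. Array medians ran from 5.45 to 5.50. Over the genes tested, arrays of 1 group correlated at 0.989 to 0.995 and arrays of different groups at 0.937 to 0.982. Precision is limited by the 3 mice of each group, and a member's group SD had a median of 0.109 over the 35 genes and 4 groups, with a range from 0.0078 to 0.482. Ppara read 11.56 in untreated wild type, 10.78 in treated wild type and 9.88 in the null group, and Clock read 8.17 in treated wild type and 9.25 in Clk/Clk mice. The sources used here do not place either probe set relative to its altered exon, so neither level checks a genotype. Of 6 hepatocyte markers, the secreted products Alb, Apoa1 and Ttr had group means between 14.56 and 14.86 in all 4 groups, while Tat (-1.64), Cps1 (-1.24) and Hnf4a (-0.69) fell with the drug in wild type.

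Calls required a Benjamini-Hochberg adjusted p under 0.05 in limma's fit of all 13598 genes together with a change of 1.5-fold or more. The filter level was 4.87 to 4.92. The member nearest to it was Slc25a27, which reached it on 3 arrays with a mean of 4.81 over all arrays. Below it were Slc25a18 (4.38), Slc25a35 (4.45), Slc25a2 (3.36) and Slc25a54 (3.29), which reached it on no array. Slc25a31, the testis form of the ADP/ATP carrier, reached it on 2 arrays, at 5.71 in treated wild-type mouse 1 and 4.96 in null mouse 3, and had a mean of 3.63. These 5 genes entered no comparison.

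In wild-type liver, bezafibrate changed 13 of the 35 carriers, 7 upward and 6 downward. The largest rise was in the ADP/ATP carrier gene Slc25a4, by 2.90 on the log2 scale, which is 7.46-fold. It was followed by the uncoupling-protein-like carrier Slc25a30 (1.62), the coenzyme A carrier Slc25a42 (1.35) and the dicarboxylate carrier Slc25a10 (1.0). Slc25a24 (0.83), Slc25a40 (0.69) and Slc25a33 (0.65) also rose. The falls were smaller, from -0.82 in Slc25a23 to -0.59 in Slc25a13, with Slc25a51 (-0.79), Slc25a16 (-0.74), Slc25a45 (-0.62) and Slc25a25 (-0.60) between. Of all genes tested, 12.8% were called higher and 7.77% lower in this comparison, and 20.6% either way, against 37.1% of the carriers. The median difference was 0.09 over the carriers and 0.01 over all genes, and the median size was 0.44 and 0.26. The 3 treated and 3 untreated arrays did not overlap in 25 of the 35 carriers (71.4%) and in 56.3% of all genes. The 22 carriers not called lay between -0.55 and 0.53.

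On bezafibrate, 8 carriers differed between null and wild-type livers, with 6 lower and 2 higher in null mice. Slc25a4 (-2.74) and Slc25a30 (-2.42) were lowest relative to wild type, followed by Slc25a33 (-1.12), Slc25a34 (-1.08), the glutamate carrier Slc25a22 (-1.03) and Slc25a32 (-0.66). The aspartate/glutamate carrier Slc25a12 (0.91) and Slc25a45 (0.85) were higher. Over all genes, 8.09% were called lower and 5.35% higher, 13.4% together, against 22.9% of the carriers. The carriers' median difference was 0.03, and that of all genes 0.01. Arrays did not overlap in 23 carriers (65.7%) and in 48.6% of all genes. The 27 carriers not called lay between -0.58 and 0.55. This comparison uses the same treated wild-type arrays as the drug comparison, so an error in those arrays moves both.

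Clk/Clk and wild-type livers, both on bezafibrate, differed in 3 carriers. The folate and flavin carrier gene Slc25a32 was higher (0.66), and the ATP-Mg/phosphate carrier Slc25a24 (-0.64) and the glutathione carrier Slc25a40 (-0.67) were lower. These 3 are 8.57% of the carriers, and 9.13% of all genes were called, 2.64% higher and 6.49% lower, so the share was near that of all genes. Median differences were -0.02 over the carriers and 0.02 over all genes. Arrays did not overlap in 19 carriers (54.3%) and in 42.3% of all genes. The other 32 carriers lay between -0.55 and 0.56. The count higher became 0 without Clk/Clk mouse 2 and 3 without treated wild-type mouse 3, and the count lower became 1 without Clk/Clk mouse 1, Clk/Clk mouse 3 or treated wild-type mouse 1.

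**Figure D1:**
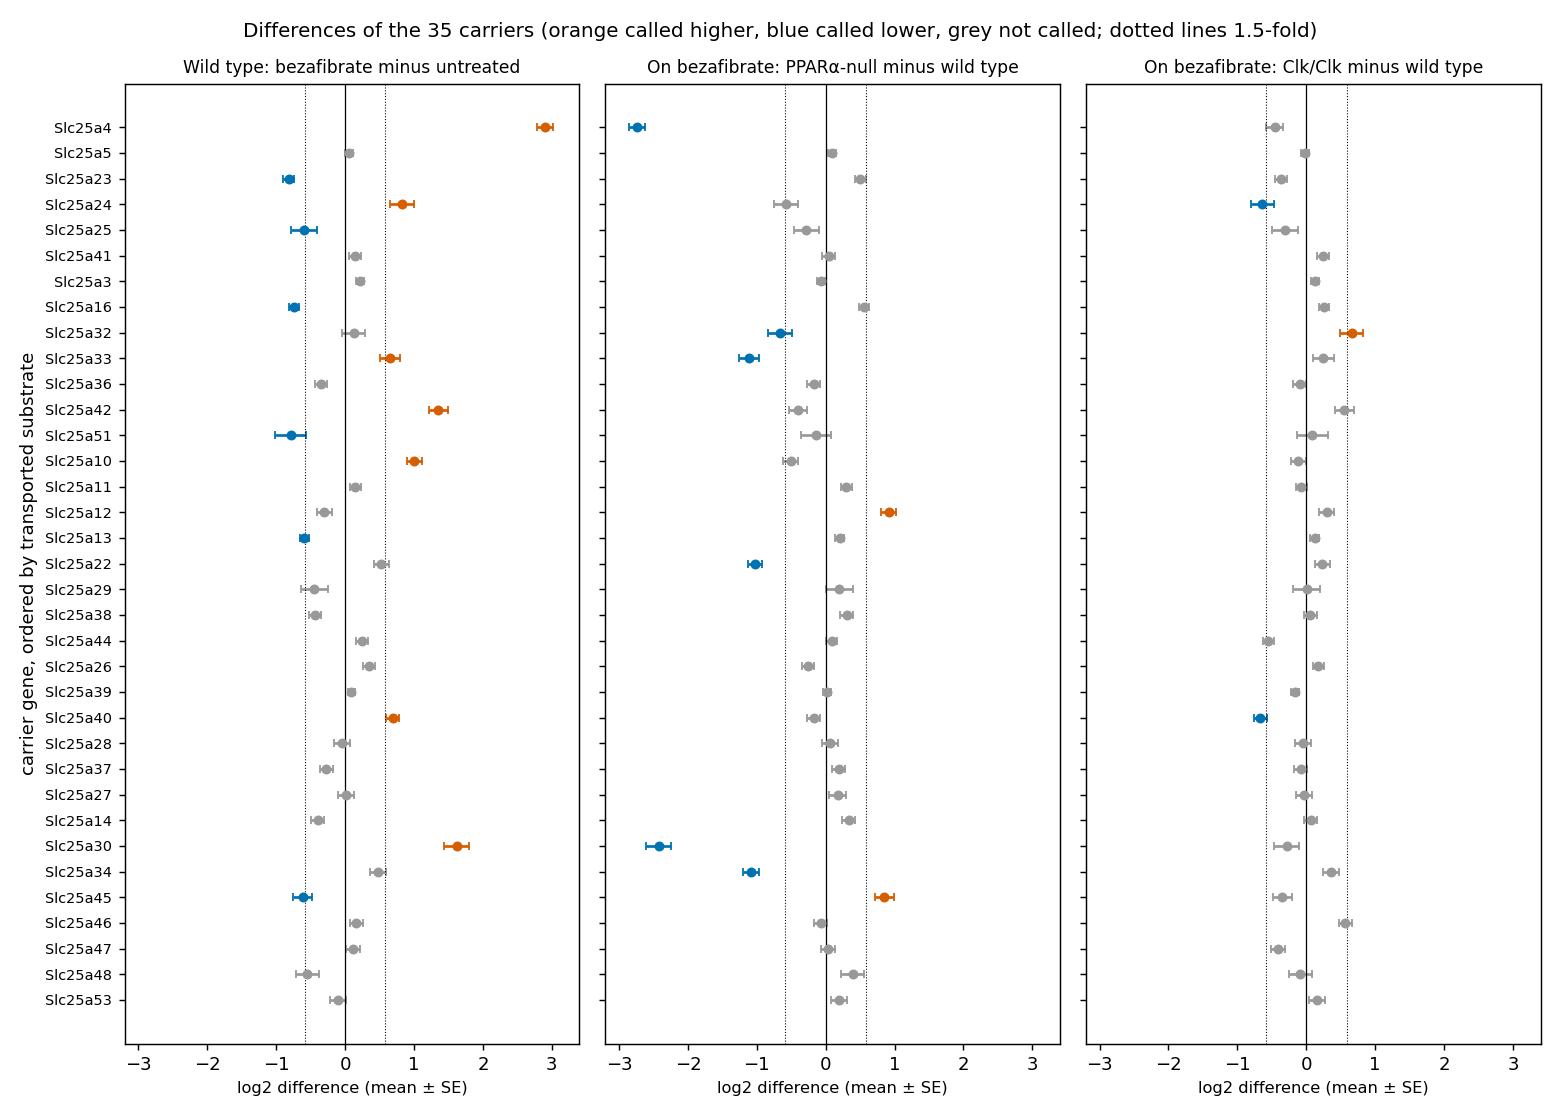
Log2 difference (x axis, with the SE from limma's fit of 12 arrays) of each of the 35 carriers (y axis, ordered by transported substrate) in the 3 main comparisons; orange marks genes called higher, blue lower, grey not called, and dotted lines mark 1.5-fold. Slc25a4 and Slc25a30 lie farthest right in the first panel and farthest left in the second, and the third panel stays within -0.67 to 0.66.

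**Figure D2:**
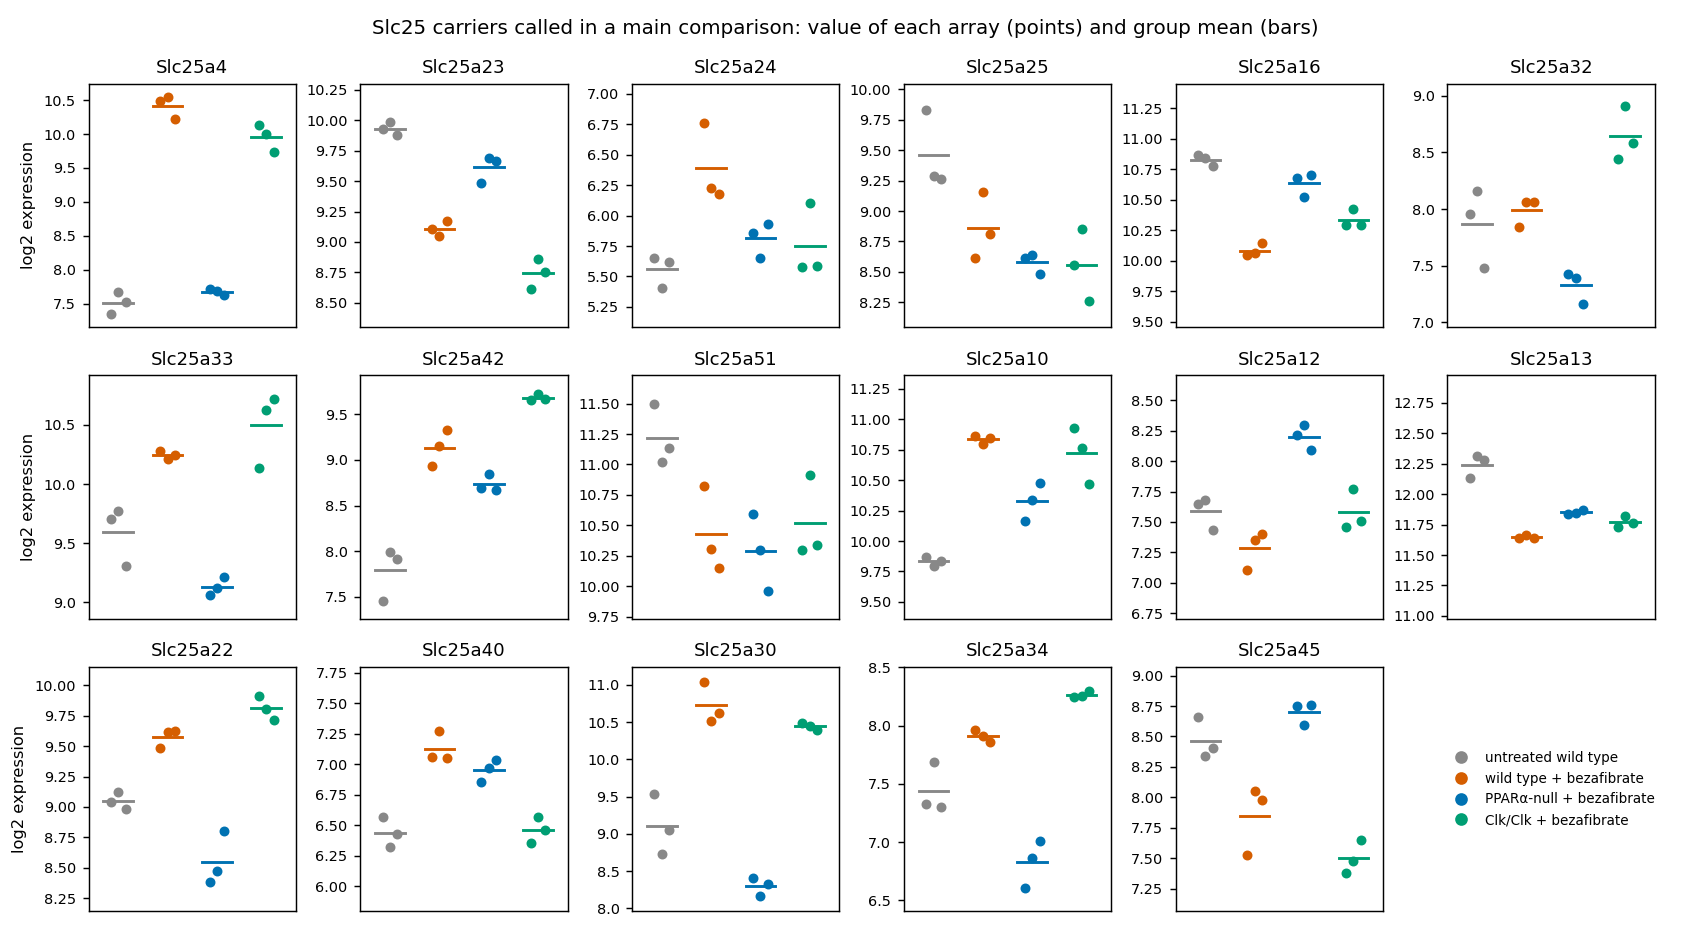
Log2 expression (y axis) of the 17 carriers called in a main comparison, with 1 point for each of the 3 arrays of a group and a bar at the group mean; each panel has its own axis range. In Slc25a4 all treated wild-type and Clk/Clk arrays lie at 9.74 or higher and all untreated and null arrays at 7.71 or lower.

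Among carriers that exchange ADP for ATP, Slc25a4 (ANT1, the form that predominates in heart and muscle) read 7.36, 7.67 and 7.52 in untreated wild type and 10.48, 10.54 and 10.22 in treated wild type. Null arrays read 7.71, 7.69 and 7.63, and Clk/Clk arrays 10.13, 10.00 and 9.74. Untreated wild-type and null arrays thus shared one low range, and both other groups lay clear of it. The difference was 2.90 (SE 0.118, adjusted p = 1.84e-08) for the drug in wild type and -2.74 (SE 0.118, adjusted p = 5.8e-08) for null against wild type. Treated null against untreated wild type gave 0.16 (SE 0.118, adjusted p = 0.372), which was not called. Clk/Clk arrays all lay below the treated wild-type arrays, at -0.46 (SE 0.118, adjusted p = 0.0159), short of 1.5-fold. All 3 of its probe sets above the filter moved alike, with drug differences of 2.71 to 3.04 and null differences of -2.98 to -2.65. All 3 bear name suffixes for probes that match several transcripts. The only Slc25a4 probe set without a suffix was under the filter level on all 12 arrays, with group means of 3.23 to 3.34. Slc25a4 thus has no value when suffixed probe sets are left out. Slc25a5 (ANT2, its close relative and a main form in liver) was flat, with all 12 arrays between 13.44 and 13.70 and differences of 0.06, 0.10 and -0.02 in the 3 main comparisons. Its 8 probe sets gave drug differences of 0.01 to 0.17. Signal shared between close paralogs such as these was not tested.

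Skeletal muscle also expresses Slc25a4. Of 5 muscle markers, Myh4 and Tnnt3 were under the filter level on all 12 arrays. In untreated wild type, treated wild type, null and Clk/Clk mice, Ckm had means of 5.99, 5.66, 5.99 and 5.98, Mylpf of 5.38, 5.12, 5.59 and 5.33, and Acta1 of 5.28, 5.37, 5.30 and 5.19. Ckm and Mylpf were lowest and Acta1 highest in treated wild type, and none was called in a main comparison. The log2 of the summed signal of the 5 was 7.47 to 7.51 in untreated wild type, 7.25 to 7.42 in treated wild type, 7.46 to 7.62 in null and 7.44 to 7.45 in Clk/Clk mice. The part of muscle RNA in the Slc25a4 values was not tested.

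The ATP-Mg/phosphate carriers, which adjust the adenine nucleotide content of the matrix, moved in opposite directions. Slc25a23 read 9.93, 9.98 and 9.88 in untreated wild type, 9.11, 9.05 and 9.17 in treated wild type, 9.49, 9.69 and 9.66 in null and 8.62, 8.86 and 8.75 in Clk/Clk mice. Its groups did not overlap in any pair, in the order untreated, null, treated wild type and Clk/Clk from high to low. With the drug it differed by -0.82 (SE 0.0814, adjusted p = 9.85e-06). Null against wild type (0.50) and Clk/Clk against wild type (-0.37) stayed under 1.5-fold. Slc25a24 was weak and rose, from 5.65, 5.41 and 5.62 in untreated to 6.76, 6.23 and 6.18 in treated wild type, a difference of 0.83 (SE 0.174, adjusted p = 0.00206). Null arrays read 5.86, 5.65 and 5.93 and Clk/Clk arrays 5.58, 6.10 and 5.58. Treated wild-type mouse 1 was the highest array of this gene. The null difference of -0.58 was just short of 1.5-fold, and a call was made on leaving out null mouse 3 (-0.64), or wild-type treated mouse 2 (-0.66) or 3 (-0.68). The Clk/Clk difference, -0.64 (SE 0.174, adjusted p = 0.0211), was lost without Clk/Clk mouse 1 (-0.55), Clk/Clk mouse 3 (-0.55) or treated wild-type mouse 1 (-0.45), with array weights (-0.56) and in a fit of both groups alone.

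Slc25a25, a calcium-regulated carrier of the same kind, was higher in untreated wild type than in every treated group. Untreated arrays read 9.83, 9.29 and 9.26, treated wild-type arrays 8.61, 9.16 and 8.81, null arrays 8.62, 8.64 and 8.49 and Clk/Clk arrays 8.56, 8.85 and 8.26. The 3 treated groups overlapped one another, and none overlapped the untreated group. Against untreated wild type the differences were -0.60 (SE 0.187, adjusted p = 0.0196) for treated wild type, -0.88 (SE 0.187, adjusted p = 0.00706) for null and -0.91 (SE 0.187, adjusted p = 0.00198) for Clk/Clk mice, and all 3 share the untreated arrays. As the mean of its probe sets the null (-0.52) and Clk/Clk (-0.48) calls were lost. The wild-type call was lost without treated mouse 1 (-0.48) or 3 (-0.58) or untreated mouse 1 (-0.42), and as the mean of its probe sets (-0.39), and also under array weights (-0.53), and 1 of its 3 probe sets differed by 0.07. Slc25a41 was near the filter level, at 4.96 to 5.53, with a drug difference of 0.14 (SE 0.0903, adjusted p = 0.226), and was not called. The phosphate carrier Slc25a3, which supplies ATP synthase, lay between 12.72 and 13.14, with a drug difference of 0.22 (SE 0.0577, adjusted p = 0.00859) that was under 1.5-fold.

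The 6 carriers of coenzymes and other nucleotides moved in both directions. Slc25a42, which brings coenzyme A into the matrix in exchange for adenine nucleotides, read 7.45, 7.99 and 7.92 in untreated and 8.93, 9.15 and 9.33 in treated wild type. Null arrays read 8.69, 8.84 and 8.67 and Clk/Clk arrays 9.66, 9.73 and 9.67. No treated array overlapped an untreated one, and from low to high the groups stood in the order untreated, null, treated wild type and Clk/Clk. Bezafibrate in wild type gave 1.35 (SE 0.136, adjusted p = 1.13e-05). Treated null against untreated wild type was also called, at 0.95 (SE 0.136, adjusted p = 0.000805), a call lost as the mean of its probe sets (0.51). The null difference (-0.40) was not called, and Clk/Clk against treated wild type (0.55) was called on leaving out treated wild-type mouse 3 (0.65). Its second probe set, near the filter level, gave a drug difference of 0.30. Slc25a16, a carrier linked to coenzyme A supply, moved the other way, from 10.87, 10.84 and 10.78 in untreated to 10.04, 10.06 and 10.14 in treated wild type, a difference of -0.74 (SE 0.071, adjusted p = 7.47e-06). Null arrays read 10.68, 10.52 and 10.71 and Clk/Clk arrays 10.29, 10.42 and 10.30, between both wild-type groups. Null against treated wild type was 0.55 (SE 0.071, adjusted p = 0.000128), under 1.5-fold, and it was called without null mouse 2 (0.61).

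Slc25a33, a pyrimidine nucleotide carrier, read 9.71, 9.77 and 9.31 in untreated and 10.28, 10.21 and 10.25 in treated wild type. Null arrays, at 9.06, 9.12 and 9.21, lay below every other array, and Clk/Clk arrays read 10.14, 10.63 and 10.72. The drug difference was 0.65 (SE 0.149, adjusted p = 0.0037) and was lost without untreated mouse 3 (0.51). In null mice it was apart from treated wild type by -1.12 (SE 0.149, adjusted p = 0.000174). Its relative Slc25a36 was not called, at -0.35 with the drug, -0.17 in null and -0.09 in Clk/Clk mice. Slc25a32, which carries folates or flavin into mitochondria, was not called with the drug in wild type, where untreated arrays read 7.96, 8.16 and 7.48 and treated arrays 7.84, 8.06 and 8.06. Null arrays were lower, at 7.43, 7.39 and 7.16, and Clk/Clk arrays higher, at 8.44, 8.91 and 8.59, each without overlap with treated wild type. These differences were -0.66 (SE 0.168, adjusted p = 0.0103) and 0.66 (SE 0.168, adjusted p = 0.0154). The null call was lost without null mouse 3 (-0.58) and as the mean of its probe sets (-0.29), 1 of which differed by 0.43 the other way. The Clk/Clk call was lost without Clk/Clk mouse 2 (0.53) or treated wild-type mouse 1 (0.58), and all 3 probe sets were higher in Clk/Clk mice, by 0.62 to 0.87.

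Slc25a51, which carries NAD into mitochondria, read 11.50, 11.02 and 11.14 in untreated wild type. Treated wild-type arrays read 10.82, 10.31 and 10.15, null arrays 10.59, 10.30 and 9.96 and Clk/Clk arrays 10.29, 10.91 and 10.34. As with Slc25a25, each treated group lay below the untreated arrays and the treated groups overlapped. Against untreated wild type the differences were -0.79 (SE 0.223, adjusted p = 0.012), -0.93 (SE 0.223, adjusted p = 0.0128) and -0.70 (SE 0.223, adjusted p = 0.0234) for wild type, null and Clk/Clk mice. The wild-type call was lost without untreated mouse 1 (-0.65, adjusted p = 0.0502). The null call was lost without null mouse 3 (-0.77), and the Clk/Clk call without Clk/Clk mouse 1 (-0.59) or 3 (-0.62) or untreated mouse 1 (-0.56). The 3 probe sets gave drug differences between -1.19 and -0.45.

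The dicarboxylate carrier Slc25a10, which exchanges malate or succinate for phosphate, read 9.87, 9.79 and 9.84 in untreated and 10.86, 10.79 and 10.85 in treated wild type. Null arrays read 10.17, 10.34 and 10.48, between both wild-type groups, and Clk/Clk arrays read 10.93, 10.76 and 10.47, overlapping treated wild type. Its rise with the drug was 1.0 (SE 0.11, adjusted p = 2.21e-05). The null group differed from treated wild type by -0.51 (SE 0.11, adjusted p = 0.00448), under 1.5-fold, and null against untreated wild type was 0.50, also not called. The oxoglutarate/malate carrier Slc25a11 of the malate-aspartate shuttle was not called, at 0.15 with the drug and 0.30 in null mice.

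Amino acid carriers differed by member. Slc25a13 (citrin, the aspartate/glutamate carrier of hepatocytes) read 12.13, 12.31 and 12.28 in untreated and 11.64, 11.67 and 11.64 in treated wild type. Null arrays read 11.84, 11.84 and 11.87 and Clk/Clk arrays 11.73, 11.82 and 11.76, all below the untreated arrays and above the treated wild-type arrays. Its drug difference of -0.59 (SE 0.064, adjusted p = 1.88e-05) was barely past 1.5-fold. It slipped under that size without untreated mouse 2 (-0.56) or 3 (-0.57), after a further quantile normalization (-0.58) and with arrays centred on their medians (-0.58). Slc25a12 (aralar, the same exchanger in brain and muscle) read 7.65, 7.68 and 7.43 in untreated and 7.11, 7.35 and 7.40 in treated wild type, 8.21, 8.30 and 8.09 in null and 7.46, 7.77 and 7.51 in Clk/Clk mice. Null arrays were above all others. Null against treated wild type was 0.91 (SE 0.11, adjusted p = 8.4e-05), and null against untreated wild type 0.61 (SE 0.11, adjusted p = 0.00304), the latter lost without null mouse 2 (0.56) or untreated mouse 3 (0.54) and as the mean of its probe sets (0.28). As the mean of its 3 probe sets the difference from treated wild type was 0.45 and not called, since the probe sets ranged from -0.07 to 0.91.

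Slc25a22, which imports glutamate with protons, read 9.04, 9.12 and 8.98 in untreated and 9.49, 9.62 and 9.62 in treated wild type. Null arrays were below all others, at 8.38, 8.47 and 8.80, and Clk/Clk arrays above all others, at 9.91, 9.81 and 9.71. The drug difference, 0.53 (SE 0.104, adjusted p = 0.00148), was under 1.5-fold. For null mice it was -1.03 (SE 0.104, adjusted p = 2.4e-05) against treated wild type and -0.50 against untreated wild type, the latter not called. Among the rest, the glycine carrier Slc25a38, which serves heme synthesis, had a drug difference of -0.44 (SE 0.0907, adjusted p = 0.00202), and the basic amino acid carrier Slc25a29 one of -0.45 (SE 0.196, adjusted p = 0.0786). The branched-chain amino acid carrier Slc25a44 had 0.25 with the drug and -0.55 (SE 0.0805, adjusted p = 0.000841) in Clk/Clk against wild type. None of these was called, but Slc25a29 was called for the drug without untreated mouse 1 (-0.63) and Slc25a44 in Clk/Clk mice without treated wild-type mouse 2 (-0.60). The 3 probe sets of Slc25a44 ranged from -0.55 to 0.36 in Clk/Clk against treated wild type.

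Of the carriers linked to glutathione, Slc25a40 read 6.57, 6.32 and 6.43 in untreated and 7.06, 7.27 and 7.05 in treated wild type. Null arrays read 6.86, 6.97 and 7.04, below but close to treated wild type, whereas Clk/Clk arrays, at 6.35, 6.57 and 6.46, lay in the untreated range. The drug difference was 0.69 (SE 0.0925, adjusted p = 9.65e-05), and Clk/Clk against treated wild type was -0.67 (SE 0.0925, adjusted p = 0.000622). Both calls held on leaving out any single array. Null against treated wild type was -0.17 and not called, and Clk/Clk against untreated wild type was 0.02. Its relative Slc25a39 lay between 13.60 and 13.84 on all arrays, with a drug difference of 0.09, and was not called. Slc25a26, which imports S-adenosylmethionine, had a drug difference of 0.34 (SE 0.0864, adjusted p = 0.0064), under 1.5-fold.

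The mitoferrins Slc25a37 and Slc25a28, which import iron for heme and iron-sulfur clusters, were not called in any of the 6 pairs of groups. Slc25a37 had a drug difference of -0.28 (SE 0.0936, adjusted p = 0.0295) and Slc25a28 of -0.05 (SE 0.117, adjusted p = 0.763). Slc25a37 is abundant in erythroid cells. Of 4 erythroid markers with a probe set, Alas2 read 8.11 in untreated wild type and 7.34, 7.19 and 5.77 in treated wild-type, null and Clk/Clk mice, and Hba-a1, Slc4a1 and Epb42 were under the filter level on all arrays. The log2 of their summed signal was 8.10 to 8.76 untreated, 7.47 to 8.16 in treated wild type, 7.58 to 7.69 in null and 6.41 to 7.03 in Clk/Clk mice. Its part in the Slc25a37 values was not tested.

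Among relatives of the uncoupling proteins, Slc25a30 (KMCP1, described as a kidney mitochondrial carrier) read 9.53, 8.73 and 9.05 in untreated and 11.03, 10.52 and 10.62 in treated wild type. Null arrays read 8.41, 8.17 and 8.33 and lay below every other array, and Clk/Clk arrays read 10.48, 10.45 and 10.40, just under treated wild type. The drug difference was 1.62 (SE 0.18, adjusted p = 2.43e-05), or 3.07-fold, and null against treated wild type was -2.42 (SE 0.18, adjusted p = 2.51e-06), or 5.36-fold. Treated null mice were also lower than untreated wild type, at -0.80 (SE 0.18, adjusted p = 0.00932). Clk/Clk against treated wild type was -0.28 (SE 0.18, adjusted p = 0.28) and not called. All 4 of its probe sets above the filter had the same signs, with drug differences of 0.52 to 1.62 and null differences of -2.42 to -0.65. The smallest of each came from the dimmest probe set. Slc25a14, a brain-enriched relative, had a drug difference of -0.40 (SE 0.0982, adjusted p = 0.00545), under 1.5-fold. Slc25a27 lay near the filter level, with a drug difference of 0.01 (SE 0.12, adjusted p = 0.941).

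**Figure D3:**
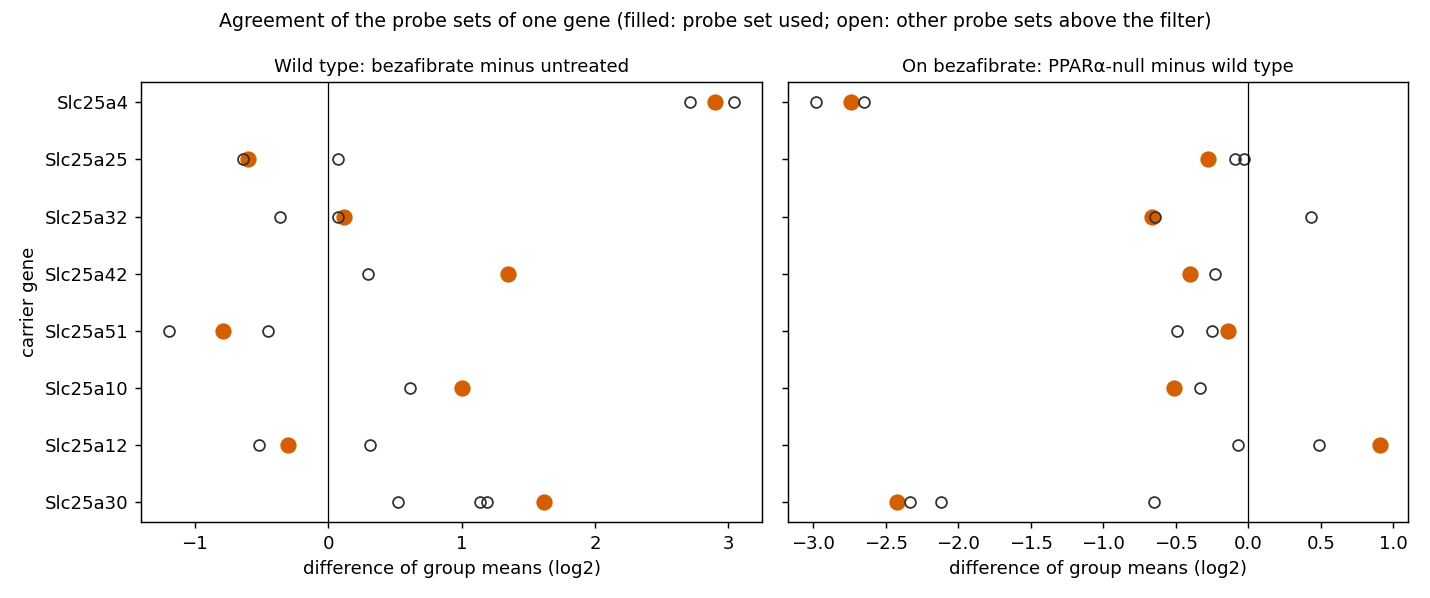
Difference of group means (x axis, log2) for each probe set above the filter of the 8 called carriers that have more than 1 (y axis); filled points are the probe sets used and open points the others. The probe sets of Slc25a4 and Slc25a30 lie on one side of 0 in both panels, whereas those of Slc25a12 lie on both sides.

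The carriers of less settled substrate were mixed. Slc25a34 read 7.33, 7.69 and 7.30 in untreated and 7.96, 7.91 and 7.86 in treated wild type, 6.61, 6.86 and 7.01 in null and 8.24, 8.26 and 8.30 in Clk/Clk mice. Its groups did not overlap in any pair. The null difference from treated wild type was -1.08 (SE 0.116, adjusted p = 3.45e-05) and null against untreated wild type -0.61 (SE 0.116, adjusted p = 0.00399), which was lost without null mouse 1 (-0.50) or untreated mouse 2 (-0.49) and with array weights (-0.58). The drug difference of 0.47 (SE 0.116, adjusted p = 0.00543) was under 1.5-fold, and it was called without untreated mouse 2 (0.60). Slc25a45 went the other way, at 8.66, 8.34 and 8.40 in untreated and 7.52, 8.05 and 7.97 in treated wild type, 8.75, 8.59 and 8.76 in null and 7.37, 7.47 and 7.65 in Clk/Clk mice. Untreated and null arrays shared the high range. The drug difference was -0.62 (SE 0.138, adjusted p = 0.00312), a call that needed treated mouse 1 (without it, -0.45) and untreated mouse 1 (without it, -0.52) and was lost with array weights (-0.57), while null against treated wild type was 0.85 (SE 0.138, adjusted p = 0.000642).

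Slc25a46, an outer-membrane relative involved in mitochondrial fusion and fission, read 10.41, 10.41 and 10.45 in Clk/Clk mice, above all other arrays, which lay between 9.64 and 9.97. Clk/Clk against treated wild type was 0.56 (SE 0.0945, adjusted p = 0.0017), short of 1.5-fold, and it was called without treated wild-type mouse 1 (0.61) or 3 (0.62). The second probe set of Slc25a46 differed by only 0.12 in this comparison. Slc25a47, a carrier found mainly in liver, had 0.12 with the drug and -0.41 (SE 0.103, adjusted p = 0.0135) in Clk/Clk against wild type. Slc25a48, a choline carrier, had a drug difference of -0.55 (SE 0.167, adjusted p = 0.0179), called without treated mouse 2 (-0.70) or untreated mouse 3 (-0.69). Slc25a53 was near the filter level, with a drug difference of -0.10 (SE 0.111, adjusted p = 0.476), and was not called. In all, 17 of the 35 carriers (48.6%) were called in 1 or more of the 3 main comparisons, against 26.6% of all genes, and 20 (57.1%) in 1 or more of the 6 pairs of groups, against 32.1% of all genes.

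The other 3 pairs of groups set each treated mutant against untreated wild type and the mutants against each other. Treated null against untreated wild type called 6 carriers (17.1%), where 6.65% of all genes were called, 3.96% higher and 2.69% lower. Slc25a42 and Slc25a12 had higher values, and Slc25a51, Slc25a25, Slc25a30 and Slc25a34 lower ones. Leaving out null mouse 2 or untreated mouse 3 took the higher count from 2 to 1. Arrays did not overlap in 21 carriers (60%) and in 39.4% of all genes. Treated Clk/Clk against untreated wild type called 14 (40%), 9 higher and 5 lower, where 19.5% of all genes were called, 10.6% higher and 8.82% lower. Here 27 carriers (77.1%) and 55.2% of all genes had arrays that did not overlap. Slc25a4 (2.44), Slc25a42 (1.90) and Slc25a30 (1.34) had the largest rises, and Slc25a33 (0.90), Slc25a10 (0.89), Slc25a34 (0.83), Slc25a32 (0.78), Slc25a22 (0.76) and Slc25a46 (0.72) were also higher. Slc25a23 (-1.19), Slc25a45 (-0.97), Slc25a25 (-0.91), Slc25a51 (-0.70) and Slc25a48 (-0.63) were lower, and the 5 became 3 without Clk/Clk mouse 3. Slc25a48 lost its call without Clk/Clk mouse 3 (-0.58) or untreated mouse 2 (-0.53), with array weights (-0.58) and as the mean of its probe sets (-0.37), where Slc25a46 (0.53) lost its call too.

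Clk/Clk against null mice, both treated, is the pair that shares no wild-type array. It called 12 carriers (34.3%), 8 higher and 4 lower in Clk/Clk mice, where 15.2% of all genes were called, 7.43% higher and 7.78% lower. Arrays did not overlap in 25 carriers (71.4%) and in 50.9% of all genes. Slc25a4 was higher by 2.28 (SE 0.118, adjusted p = 1.26e-07). The others higher were Slc25a30 (2.14), Slc25a34 (1.44), Slc25a33 (1.36), Slc25a32 (1.32), Slc25a22 (1.26), Slc25a42 (0.95) and Slc25a46 (0.64). Slc25a45 stood at -1.20 (SE 0.138, adjusted p = 4.18e-05), and Slc25a23 (-0.87), Slc25a44 (-0.63) and Slc25a12 (-0.62) were also lower. Calls were lost for Slc25a46 without null mouse 3 (0.56), for Slc25a44 without Clk/Clk mouse 2 (-0.58), and for Slc25a12 without Clk/Clk mouse 1 (-0.56), Clk/Clk mouse 3 (-0.58) or null mouse 2 (-0.57) or with array weights (-0.57). As the mean of probe sets the calls of Slc25a46 (0.55), Slc25a44 (-0.37) and Slc25a12 (-0.33) were lost. These mutants differ in both genotype and strain background, so neither can be told apart from the other.

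Start-site sequences are shown for the 4 carriers with 1 RefSeq window among the 6 called lower in null than in treated wild-type liver. These genes were picked by that call, so their shared direction there is not a finding. The windows run from 250 bases before to 50 bases after the RefSeq start (GRCm38.p6), lie on the minus strand and are written 5′ to 3′, at chr8:46211013-46211312 for Slc25a4, chr14:75786988-75787287 for Slc25a30, chr4:149774218-149774517 for Slc25a33 and chr4:141623785-141624084 for Slc25a34. Capitals mark a motif searched on both strands: DR1, the direct repeat of AGGTCA with 1 base between its copies that PPAR receptors bind, the E-box (CACGTG) that CLOCK binds with its partner, the D-box (TTATGTAA), and a single AGGTCA, which lies within DR1 and was added after the data were seen.
Slc25a4: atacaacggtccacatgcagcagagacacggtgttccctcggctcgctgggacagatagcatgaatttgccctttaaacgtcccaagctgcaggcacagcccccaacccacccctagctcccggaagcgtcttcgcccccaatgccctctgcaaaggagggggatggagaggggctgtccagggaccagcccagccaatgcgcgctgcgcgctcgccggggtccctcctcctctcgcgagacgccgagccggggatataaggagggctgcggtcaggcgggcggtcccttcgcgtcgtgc
Slc25a30: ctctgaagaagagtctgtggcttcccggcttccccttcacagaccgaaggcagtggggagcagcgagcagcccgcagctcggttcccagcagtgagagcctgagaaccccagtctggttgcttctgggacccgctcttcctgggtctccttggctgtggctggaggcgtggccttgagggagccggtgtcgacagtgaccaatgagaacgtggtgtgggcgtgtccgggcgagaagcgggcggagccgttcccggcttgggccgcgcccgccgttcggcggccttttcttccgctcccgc
Slc25a33: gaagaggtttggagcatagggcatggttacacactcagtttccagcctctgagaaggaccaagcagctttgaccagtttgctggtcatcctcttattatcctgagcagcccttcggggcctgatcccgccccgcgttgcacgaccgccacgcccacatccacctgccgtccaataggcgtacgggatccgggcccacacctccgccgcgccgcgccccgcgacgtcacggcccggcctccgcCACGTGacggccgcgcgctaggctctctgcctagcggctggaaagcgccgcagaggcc
Slc25a34: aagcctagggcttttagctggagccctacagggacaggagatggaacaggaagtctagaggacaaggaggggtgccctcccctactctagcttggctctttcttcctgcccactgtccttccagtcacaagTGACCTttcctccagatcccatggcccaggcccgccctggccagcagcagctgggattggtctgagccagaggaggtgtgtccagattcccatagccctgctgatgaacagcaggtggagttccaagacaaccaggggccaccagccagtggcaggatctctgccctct
An E-box was found in Slc25a33, starting 8 bases before the start site, and a single AGGTCA in Slc25a34, on the opposite strand and so read there as TGACCT. Slc25a22 has 3 windows, with none of the motifs, and Slc25a32 was not matched. The windows of Slc25a4 and Slc25a30 held none of the 4 motifs, and their GC content was 65.7% and 66.7%. The median GC content was 59.0% over the carriers' windows and 53.0% over all windows. RefSeq had windows for 27 of the 35 carriers, 35 in all. None held DR1 or the D-box, which were present in 0.0399% and 0.931% of 32544 windows of all genes. Only exact letters were searched. Both motifs are so rare over all windows that their absence from 35 windows says little about the carriers. E-boxes were in 5 of the 35 windows, those of Slc25a13, Slc25a14, Slc25a33 and Slc25a36, and in 7.17% of all windows. Slc25a14 has overlapping windows that hold the same E-box, which is counted in each. AGGTCA was in 4 windows, those of Slc25a34, Slc25a39, Slc25a45 and Slc25a47, and in 16.2% of all windows. A match describes letters in a window and not a bound site, and these windows leave out distant elements. In Clk/Clk against treated wild type, the 4 carriers with an E-box differed by 0.12, 0.07, 0.25 and -0.09. None of the 4 was called, where 9.13% of all genes were called, and the absence of a call among so few genes says little. A link between E-boxes and these differences was not tested.

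Related mitochondrial genes give a frame for the carriers. Of 14 tested genes that import and insert carrier proteins, 3 rose (21.4%) and none fell in treated wild type, with a median of 0.37, where 12.8% of all genes were called higher and 7.77% lower. Timm13 (0.61, adjusted p = 1.17e-05) and Timm22 (0.59, adjusted p = 5.82e-05), parts of the path that inserts carriers into the inner membrane, rose. The third was Timm10 (0.64), named after its value was seen, and the receptor subunit Tomm22 had 0.58 (adjusted p = 1.09e-05), just under 1.5-fold. None of the 14 was called in null or Clk/Clk against wild type, where 13.4% and 9.13% of all genes were called. Their median differences were -0.11 and 0.12. Smaller differences were present, such as Timm22 in null mice (-0.40, adjusted p = 0.0017). In Clk/Clk mice Timm9, named after its value was seen, had 0.51 (adjusted p = 0.0012). Of 7 other family members, 2 rose (28.6%) and 1 fell (14.3%). The carnitine/acylcarnitine carrier Slc25a20 rose by 1.18 and was -0.98 in null against wild type, and the uncoupling protein Ucp3 had 0.78 and -0.78. The ornithine carrier Slc25a15 of the urea cycle fell by 0.94 and was 0.74 in null against wild type. All 3 were called in both comparisons. In null against wild type 14.3% of the 7 were higher and 28.6% lower, where 5.35% and 8.09% of all genes were. In Clk/Clk against wild type the peroxisomal carrier Slc25a17 was called at -1.21. It is 14.3% of the 7, where 6.49% of all genes were called lower.

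Of 14 genes for other mitochondrial membrane transport, 2 rose with the drug (14.3%) and none fell, with a median of 0.07, a share near the 12.8% of all genes. Mcu, the pore of the calcium uniporter, rose by 0.80 (adjusted p = 3.86e-05) and Tspo, an outer-membrane protein, by 0.75 (adjusted p = 0.00125). Sfxn5, a sideroflexin, had -0.41 (adjusted p = 0.00101), under 1.5-fold. None was called in null against wild type, where 13.4% of all genes were called. In Clk/Clk mice Sfxn2 (0.68) was higher and Abcb10 (-0.59) lower, both named after their values were seen. Each is 7.1% of the list, where 2.64% of all genes were called higher and 6.49% lower. Of 17 genes of mitochondrial biogenesis and content, 2 rose (11.8%) and 1 fell (5.9%), with a median of 0.20, again near the 12.8% and 7.77% of all genes. The prohibitin Phb2 rose by 0.59 (adjusted p = 1.98e-05), the matrix chaperone Hspd1 had 0.48 (adjusted p = 3.11e-05), under 1.5-fold, and the coactivator Ppargc1a fell by 2.53 (adjusted p = 0.000547). Ppargc1a was 2.22 in null against wild type (adjusted p = 0.00228), a comparison that shares the treated wild-type arrays. There 5.9% of the list was called higher, near the 5.35% of all genes. The other rise was in Tfb1m (0.62), and Mterf1a was called in Clk/Clk against wild type (0.64), both named after their values were seen. Mterf1a is 5.9% of the list, where 2.64% of all genes were called higher.

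**Figure D4:**
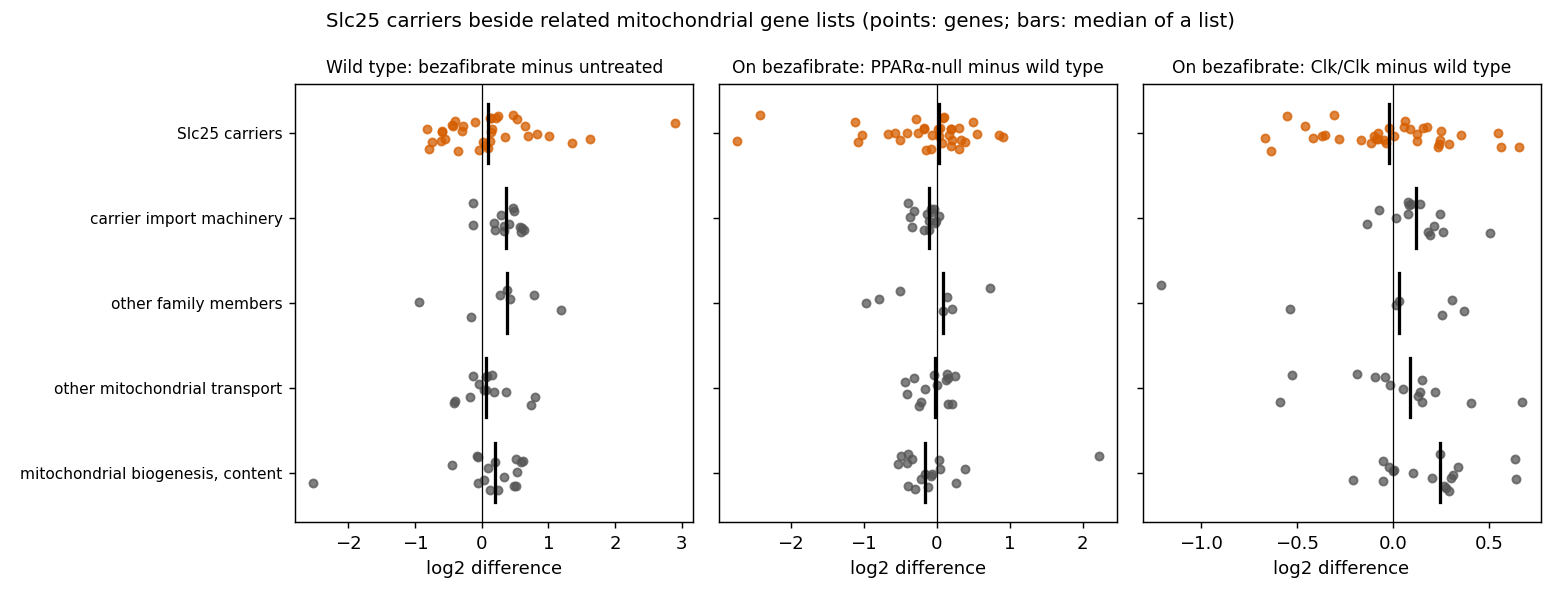
Log2 differences (x axis) of the 35 carriers (orange) and of 4 related gene lists (grey; y axis), with 1 point per gene, spread vertically for view, and a black bar at each list's median. In the first panel the carriers run from -0.82 to 2.90 around a median of 0.09, and import genes have a median of 0.37.

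In whole liver, fewer cells of a type and less RNA per cell cannot be told apart. Of all genes tested, 12.8% were called higher and 7.77% lower with the drug in wild type. The shares were 5.35% and 8.09% for null, and 2.64% and 6.49% for Clk/Clk, against treated wild type. With so few markers in a list, a single call more or less changes its share greatly. Of 6 hepatocyte markers, 3 fell with the drug in wild type (Tat, Cps1 and Hnf4a), and the log2 of the summed signal of all 6 was 16.78 to 16.84 in untreated wild type, 16.48 to 16.54 in treated wild type, 16.64 to 16.72 in null and 16.60 to 16.63 in Clk/Clk mice. Of 6 Kupffer cell and macrophage markers 1 rose with the drug, 2 were lower in null against treated wild type (Marco -0.76, Cd68 -0.68) and 3 were lower in Clk/Clk against treated wild type (Clec4f, Cd5l and Cd68). Their sums were 11.86 to 11.94, 12.03 to 12.50, 12.13 to 12.25 and 11.30 to 11.65 in the same order of groups. Sinusoidal endothelial markers gave 2 falls of 5 with the drug, stellate markers 1 fall of 6, cholangiocyte markers 1 rise of 3 and lymphocyte markers no call among 3. Of 2 tested adipocyte markers 1 rose, Cidea, from 4.70 to 6.72, while Adipoq, Lep and Ucp1 were under the filter level on all arrays. In null against treated wild type, Tat (0.84), Cps1 (0.98) and the endothelial Stab2 (0.83) were also called higher, and the cholangiocyte marker Sox9 (-0.69), the stellate marker Lrat (-0.61) and Cidea (-2.08) lower. In Clk/Clk against treated wild type, Cps1 (0.87) was higher and Alas2 (-1.57) lower. The part of cell composition in the carrier differences was not tested.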

How the data were processed

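RNA of 12 mouse livers, 3 per group, was hybridised to Affymetrix 3′ expression arrays, from 250 ng of total RNA per liver. The authors deposited log2 expression values per probe set, made with RMA per the submitters' processing notes. RMA corrects background, equalises arrays and summarises probes. Its version and settings are not given in the sources used here. Samples were grouped by their titles, and all 12 columns were used. Of 45037 probe sets other than array controls, 34945 had 1 gene symbol in the platform's gene table, checked against GRCm38.p6 gene identifiers. The 932 with several symbols, 1 of them naming an Slc25a gene, were left out. Probe sets at or above the 40th percentile on 3 or more arrays were kept (28344), and each of 13598 genes was read from its brightest one.

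limma 3.58.1 in R 4.3.3 (lmFit, eBayes) fitted 4 group means to all 12 arrays, with 8 residual degrees of freedom and p-values adjusted by Benjamini-Hochberg over all genes, for 6 pairs of groups, 3 of them main. The pipeline was tested on simulated data. All kept carriers are named; per-array values are given for those called in a main comparison, and 3 genes of smallest adjusted p per related list. Members and lists were chosen with earlier results of these data known. Alternatives covered the filter, probe set choice, rescaling, spread estimate, samples fitted, replicate block, fold minimum and single arrays left out. Precision is limited by 3 arrays a group.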

Additional observations from a re-analysis of the deposited data

How the results depend on the processing

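Counts below are carriers higher and carriers lower. The shares of all genes called under each alternative are not given here. The counts therefore show how the carriers' calls depend on a setting, and do not set the carriers apart from other genes. The main counts were 7 and 6 for the drug in wild type, 2 and 6 for null against treated wild type, 1 and 2 for Clk/Clk against treated wild type, 2 and 4 for treated null against untreated wild type, 9 and 5 for treated Clk/Clk against untreated wild type and 8 and 4 for Clk/Clk against null. With no minimum fold they were 12 and 12 for the drug in wild type, 8 and 10 for null against treated wild type, 5 and 6 for Clk/Clk against treated wild type, 6 and 10 for treated null against untreated wild type, 12 and 13 for treated Clk/Clk against untreated wild type and 11 and 11 for Clk/Clk against null, and with a 2-fold minimum 4 and 0 for the drug in wild type, 0 and 5 for null against treated wild type, 0 and 0 for Clk/Clk against treated wild type, 0 and 0 for treated null against untreated wild type, 3 and 1 for treated Clk/Clk against untreated wild type and 6 and 1 for Clk/Clk against null. With probe sets averaged for each gene they were 1 and 5 for null against treated wild type, 0 and 3 for treated null against untreated wild type, 9 and 3 for treated Clk/Clk against untreated wild type and 7 and 2 for Clk/Clk against null. For Clk/Clk against treated wild type, array weights gave 1 lower and a fit of the 2 groups alone 1 lower. Leaving out 1 array at a time, the counts higher ranged from 6 to 8 for the drug in wild type, from 2 to 3 for null against treated wild type, from 0 to 3 for Clk/Clk against treated wild type, from 1 to 2 for treated null against untreated wild type, from 9 to 10 for treated Clk/Clk against untreated wild type and from 7 to 8 for Clk/Clk against null, and the counts lower from 4 to 7 for the drug in wild type, from 6 to 7 for null against treated wild type, from 1 to 3 for Clk/Clk against treated wild type, from 3 to 6 for treated null against untreated wild type, from 3 to 5 for treated Clk/Clk against untreated wild type and from 3 to 4 for Clk/Clk against null. Over 2598 values of single carriers under the alternatives, 2518 kept their side of the threshold, 39 lost a call, 41 gained one and none of the called ones changed sign. These values are for the 3 main comparisons. Most of them are of carriers not called, which cannot lose a call. Leaving out an array of a group not compared also leaves the difference as it was, so the total says little about how firm a call is. The cause of the lost and gained calls was not tested, except that the fold minimum sets its own. Groups share replicate numbers, and same-numbered arrays of different groups deviated together at correlations of -0.09 to 0.13, with a median of 0.03. Arrays of different numbers gave -0.16 to 0.13, with a median of -0.02. The sample titles do not say what the number stands for, and a weak shared batch was not tested. With the number as a replicate block, the counts were 7 and 6 for the drug in wild type, 2 and 6 for null against treated wild type, 1 and 2 for Clk/Clk against treated wild type, 2 and 4 for treated null against untreated wild type, 9 and 5 for treated Clk/Clk against untreated wild type and 8 and 4 for Clk/Clk against null. The 60th-percentile filter tested 32 of the carriers, leaving out suffixed probe sets 29, and no filter 40. Members near the filter level are the least certain, since weak signal limits what a difference can show.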
